A study of Mus musculus with 6 samples.

Results

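The histone genes are described here as they appear in RNA of mouse prefrontal cortex from which ribosomal RNA had been removed. They were chosen by name and by position: a gene was taken where its symbol begins with Hist1h to Hist4h, H2af, H3f3 or H1f, pseudogene symbols ending in -ps were left out, and estimated counts were summed over the isoforms that share exons with the gene. This gave 87 genes of 54787 in the table. Of these, 67 are coding genes of the histone clusters (replication-dependent genes), 15 are coding replacement histone genes, and 5 are not coding (the pseudogene-type entries H3f3c, H2afy3, Hist1h2aj and Hist1h2al, and H3f3aos, an antisense RNA of H3f3a). The 5 non-coding genes stay out of all sums.

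Core histones H2A, H2B, H3 and H4 form the protein spool of the nucleosome, and the linker histone H1 binds where DNA enters and leaves it. Replication-dependent histone genes sit in clusters, mostly lack introns, and supply new chromatin in S phase; their mRNAs usually end in a stem-loop instead of a poly(A) tail and are therefore poorly seen in poly(A)-selected libraries. Replacement histones such as H3.3 and H2A.Z come from genes with introns and polyadenylated mRNAs, are made outside S phase, and are the main source of new histones in cells that no longer divide, neurons included.

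The mice were male C57BL/6 animals, aged 5 weeks when dosing began and 30 weeks when sampled. The control group received water (0 mg/kg polystyrene nanoparticles, PS NPs) and the PS_high group 50 mg/kg PS NPs, both by gavage on each day for 6 months. Each group has 3 samples; the labels list them as separate samples without naming the animals, so p-values measure the spread between these samples, which may be in part technical. The RNA of the 6 libraries was total RNA treated with Ribo-Zero and made into stranded libraries.

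The 6 libraries held 53344395 to 66004386 estimated counts. All 8 neuron markers examined were measured above the filter, with a summed level of 3648 to 5487 CPM (counts scaled to library size) per library, so neurons of the labelled tissue were represented. Across all genes, 5 of 20272 tested genes (0.0247%) passed an adjusted p under 0.05 in edgeR's quasi-likelihood test of PS_high against control, and the median log2 difference was -0.01. The library PS_high 1 stood apart from the other 5 in the cluster histone genes. For named histone genes whose difference it moved strongly the value without it is given too.

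The promoters show what the gene classes share beyond their names. RefSeq sequence of 250 bases before the transcription start (GRCm38.p6) was matched for 76 of the 82 coding genes. Searched on both strands were the octamer ATTTGCAT (reverse ATGCAAAT), known as the Oct-1 element of H2B genes, CCAAT (reverse ATTGG), and TATAAA (reverse TTTATA). The windows of head-to-head H2A and H2B genes overlap, so the same letters can be counted for both. Among 32851 RefSeq promoters of the same length, 1.6% held the octamer, 33.8% CCAAT and 12.4% TATAAA. Of 62 replication-dependent promoters, 13 (21.0%) held the octamer, 51 (82.3%) CCAAT and 29 (46.8%) TATAAA. The octamer was found at 7 of 18 H2A genes and 6 of 16 H2B genes, and at 0 of the H1, H3 and H4 genes. CCAAT was found at all 6 H1, 18 H2A and 16 H2B genes, at 8 of 10 H3 genes, and at 3 of 12 H4 genes (25.0%). Of the 14 replacement promoters, 9 held CCAAT (64.3%), 1 TATAAA (7.14%) and 1 the octamer (7.14%).

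The 200 bases before the start are printed for 3 genes that stand for these patterns, 5′ to 3′ on the gene's strand and with the searched letters in capitals. Hist1h4n is the most highly expressed cluster gene per length, Hist1h2bg shows an octamer with CCAAT and TATAAA letters in one window, and H2afz, which encodes the variant H2A.Z.1, has the highest mean FPKM of the replacement genes, although by CPM H3f3a and H3f3b are higher.
Hist1h4n (RefSeq H4c18, chr13:21832198-21832397, minus strand): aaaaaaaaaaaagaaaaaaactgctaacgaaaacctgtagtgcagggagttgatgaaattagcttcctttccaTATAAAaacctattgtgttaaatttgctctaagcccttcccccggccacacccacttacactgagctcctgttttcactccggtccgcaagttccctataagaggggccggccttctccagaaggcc
Hist1h2bg (RefSeq H2bc8, chr13:23571200-23571399, plus strand): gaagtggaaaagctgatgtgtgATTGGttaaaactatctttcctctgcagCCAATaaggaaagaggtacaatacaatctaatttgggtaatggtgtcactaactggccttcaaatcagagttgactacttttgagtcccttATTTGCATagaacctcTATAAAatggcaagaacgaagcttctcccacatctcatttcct
H2afz (RefSeq H2az1, chr3:137864287-137864486, plus strand): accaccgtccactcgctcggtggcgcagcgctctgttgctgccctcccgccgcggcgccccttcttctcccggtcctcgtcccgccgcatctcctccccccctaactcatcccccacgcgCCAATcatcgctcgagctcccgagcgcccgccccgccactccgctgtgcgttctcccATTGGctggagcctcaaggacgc
Counting the start as the base after the window, TATAAA begins at -127 in Hist1h4n and at -43 in Hist1h2bg. The octamer of Hist1h2bg begins at -59 and its CCAAT letters at -178 (reverse) and -150. In H2afz the CCAAT letters begin at -80 and -23 (reverse). These are matches of letters in a window and were not tested as binding sites.

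RNA of the cluster genes was present in every library of this adult tissue. FPKM, in which fragments are scaled by transcript length and library size so that genes can be compared, summed over the 67 replication-dependent genes to 149, 152 and 148 in control 1, 2 and 3 and to 90.6, 180 and 181 in PS_high 1, 2 and 3. Over the 15 replacement genes the FPKM summed to 137, 117 and 140 in the controls and to 134, 139 and 117 in the PS_high libraries. On this scale the 2 classes were thus of like size in 5 libraries, with a ratio of replacement to cluster genes of 0.649 to 0.946, and in PS_high 1 the ratio was 1.48. In bulk RNA, a change in the number of cells of a type and a change in RNA per cell cannot be told apart.

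Histone H4 accounted for most of the cluster RNA. Its 13 genes held 62.8% to 67.6% of the summed FPKM of the replication-dependent genes in the 6 libraries, while the H3 genes held far less: H4 FPKM was 12.2 to 17.9 times the H3 FPKM in each library. No H4 or H2B gene is among the replacement genes of the rule, and the mouse genome encodes the same H4 protein at many loci. H3 came mainly from the replacement genes H3f3a and H3f3b, which encode H3.3. The FPKM ratio of replacement H3 to cluster H3 was 5.78, 7.46 and 8.35 in the controls and 19.1, 5.496 and 6.56 in PS_high 1, 2 and 3. The high value in PS_high 1 goes with the lowest cluster H3 FPKM of the 6 libraries, 3.36, against 6.34 to 9.20 in the others. For H2A the ratio of replacement to cluster FPKM was 4.22, 4.01 and 4.67 in the controls and 4.52, 3.06 and 1.83 in the PS_high libraries.

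**Figure D1:**
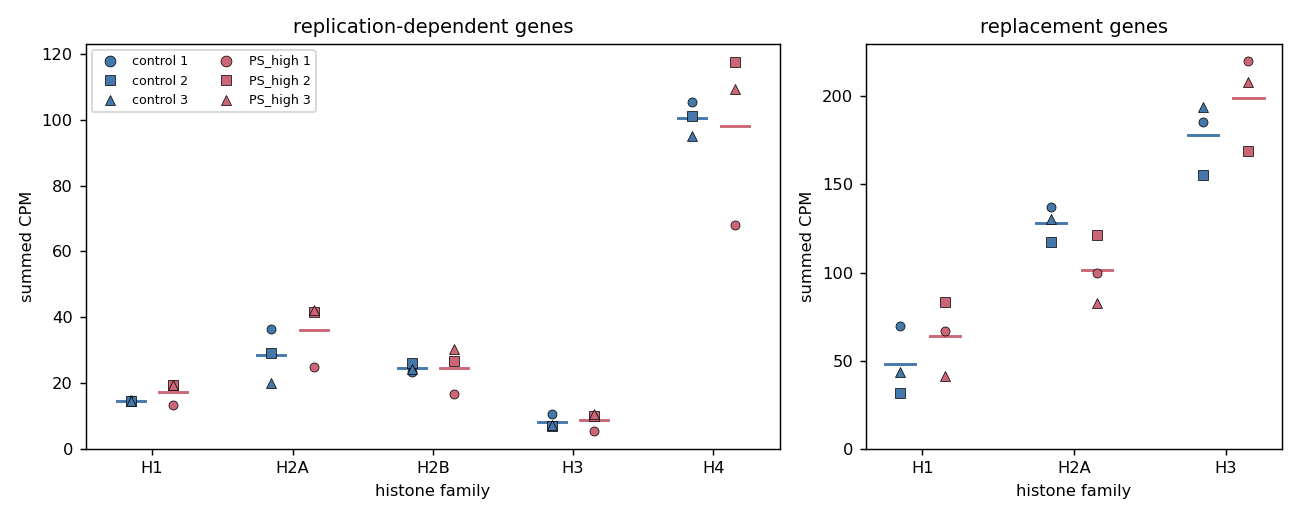
Summed CPM (linear axis, y) of the coding histone genes by family (x), with replication-dependent genes on the left and replacement genes on the right, each on its own scale. Each symbol is 1 library and each bar the mean of 3 libraries; PS_high 1 is the lowest library in 4 of the 5 replication-dependent families and lies at 68.1 CPM for H4, below the 95.1 to 117 CPM of the others.

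No histone gene passed the threshold between PS_high and control. Of the 50 tested genes of the list (38 replication-dependent, 10 replacement, H3f3c and H3f3aos), 0 were called by edgeR at an adjusted p under 0.05, where 0.0247% of all tested genes were called. Each had an adjusted p of 0.9997. At an unadjusted p under 0.05 there was 1 gene, Hist1h1e, which was higher in PS_high, against 2.73% of all tested genes (1.26% higher and 1.47% lower), and DESeq2 called 0 with 2 at an unadjusted p under 0.05 (Hist1h1e and Hist1h4j), against 3.31% of all tested genes. The replication-dependent genes had a median log2 difference of 0.04, with 20 above 0 and 18 below. The replacement genes had a median of 0.01, with 6 above 0 and 4 below, and over all tested genes 48.5% were above 0. Standard errors of the tested coding genes ran from 0.17 to 0.82 on the log2 scale, with a median of 0.34, so that differences of that size could not be resolved for most of them. The 2 groups did not overlap for 4 of the 48 tested coding genes (8.33%), namely H2afv, H3f3b, Hist1h1e and Hist1h4j, where 7.09% of all tested genes did not.

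The summed levels of both classes differed between the groups by less than the spread within them. The replication-dependent genes summed to 190, 178 and 161 CPM in the controls (177 ± 14.6, SD, n = 3) and to 128, 215 and 212 CPM in PS_high (185 ± 49.1, SD, n = 3), a log2 ratio of means of 0.07. PS_high 1 was the lowest and PS_high 2 and 3 were the highest of the 6 libraries. Without PS_high 1 the mean of PS_high was 213 CPM and the log2 ratio 0.27. The replacement genes summed to 392, 305 and 368 CPM in the controls (355 ± 44.9, SD, n = 3) and to 387, 374 and 333 CPM in PS_high (365 ± 28.3, SD, n = 3), a log2 ratio of 0.04, and the groups overlapped.

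Among the cluster genes the H4 genes were the most abundant per length. Hist1h4n (chr13:21831767-21832196, a single-exon gene of the large Hist1 cluster, coordinates as in the deposited table) had a mean of 17.6 FPKM. Its CPM were 12.1, 11.2 and 9.84 in the controls and 7.49, 14.97 and 12.6 in PS_high, so the groups overlapped (log2 difference 0.08, SE 0.28; 0.33 without PS_high 1). Hist1h4m (chr13:21811746-21812147) followed with 17.4 FPKM and with 11.2, 9.33 and 10.5 CPM against 8.59, 12.3 and 11.3 CPM (log2 0.05, SE 0.21; 0.20 without PS_high 1). The promoter windows of Hist1h4n and Hist1h4m are near copies, with 298 of 301 aligned positions identical (99.0%), while those of Hist1h4n and Hist1h4h share 49.2%. Reads of such near-identical genes could have been divided between them in the authors' counting, and single values of the cluster genes are uncertain for that reason.

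The other 4 of the 6 most abundant cluster genes also encode H4. Hist1h4h (chr13:23531050-23531519, 11.1 FPKM) had 8.73, 9.61 and 7.80 CPM in the controls and 3.66, 9.11 and 7.81 CPM in PS_high (log2 -0.34, SE 0.34), with only PS_high 1 outside the range of the controls, and without PS_high 1 the log2 difference was -0.04. Hist1h4f (chr13:23551258-23551648, 10.1 FPKM) had 5.76, 4.63 and 4.28 CPM in the controls and 4.43, 7.85 and 8.85 CPM in PS_high (log2 0.53, SE 0.30). It is the only H4 gene for which PS_high 1 was not the lowest library. Hist1h4d (chr13:23581598-23582735, 9.18 FPKM) had 14.2, 16.5 and 18.3 against 9.31, 17.5 and 18.1 CPM (log2 -0.12, SE 0.28), and 0.13 without PS_high 1. Hist2h4 (chr3:96261682-96263311, 9.08 FPKM), of the smaller Hist2 cluster, had 25.3, 22.2 and 20.6 against 19.4, 25.0 and 21.4 CPM (log2 -0.05, SE 0.18; 0.04 without PS_high 1), and its values varied little among the libraries.

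The clusters on other chromosomes were also expressed. Hist3h2a, an H2A gene that shares a strand and bases with Trim17, had 29.7, 23.5 and 11.2 CPM in the controls and 19.1, 33.7 and 31.9 CPM in PS_high (log2 0.40, SE 0.38), and 0.62 on that scale without PS_high 1. Hist3h2ba, the H2B gene of the same cluster, had 5.13, 6.90 and 6.72 against 2.33, 5.82 and 8.45 CPM. Without PS_high 1 its log2 difference was 0.20 (SE 0.27). Hist4h4, the single gene of the Hist4 group, had 6.35, 8.63 and 5.94 against 4.50, 10.1 and 9.39 CPM, and a log2 difference of 0.49 (SE 0.24) without PS_high 1. In all 3 genes both PS_high 2 and PS_high 3 exceeded PS_high 1, and the groups overlapped.

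H1 linker genes of the cluster were few and low. Hist1h1c, which encodes H1.2, had 7.51, 7.64 and 5.72 CPM in the controls and 6.75, 8.20 and 9.59 CPM in PS_high (log2 0.23, SE 0.23), and 0.36 without PS_high 1. Hist1h1e, which encodes H1.4, had the largest estimated rise among the replication-dependent genes. It had 2.08, 1.66 and 1.80 CPM in the controls and 2.14, 3.95 and 2.90 CPM in PS_high (log2 0.70, SE 0.30, edgeR adjusted p = 0.9997). All 3 PS_high libraries lay above all 3 controls, PS_high 1 by a narrow margin. Hist1h1e overlaps Hist1h2be and Gm11398 on the same strand, so its reads are uncertain.

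Low genes made up the rest of the extremes. Hist1h4j, an H4 gene, had the largest estimated fall (log2 -1.38, SE 0.68) on 56, 40 and 45 counts in the controls and 3, 28 and 17 in PS_high. Without PS_high 1 its log2 difference was -0.88 (SE 0.45), with the 2 remaining PS_high libraries still below the controls. Hist1h2br (log2 -0.92, SE 0.82), Hist1h2ak (-0.83, SE 0.70) and Hist1h2bb (-0.77, SE 0.54) had estimates below 0 that were each within 2 standard errors. Without PS_high 1 they were -0.47 for Hist1h2br, -0.43 for Hist1h2ak and -0.62 for Hist1h2bb. The high Hist1h2br value of control 1, 1.51 CPM against 0.107 to 0.514 CPM in the other 5 libraries, sets its direction: without control 1 the log2 difference was 0.24. Likewise Hist1h2bb had 1.91 CPM in control 2 and 0.471 to 0.724 CPM elsewhere, and its difference was -0.00 without control 2. Above 0 stood Hist1h3a, an H3 gene (0.65, SE 0.56), through PS_high 3 at 0.919 CPM against 0.234 to 0.407 CPM in the others, and without PS_high 3 it was -0.05.

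**Figure D2:**
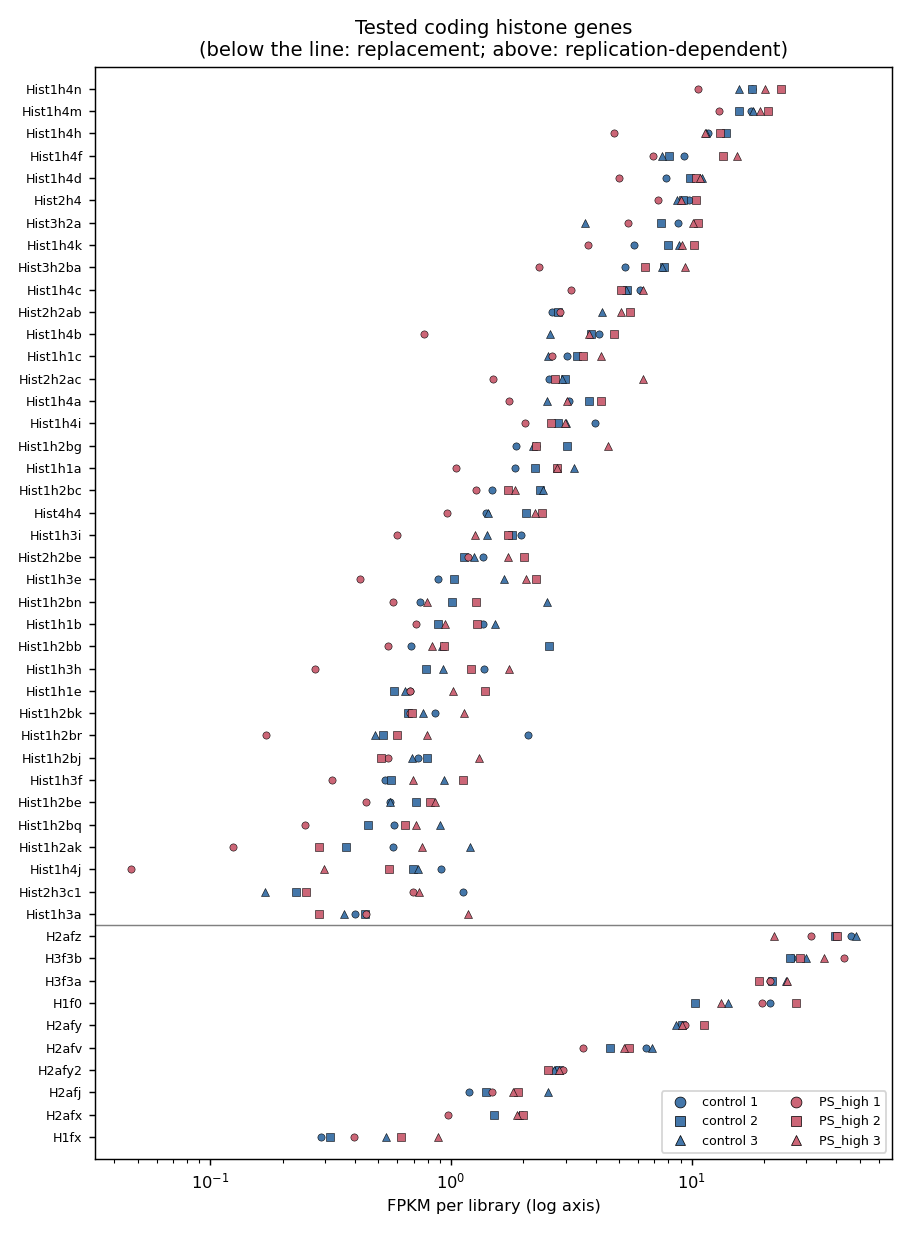
FPKM per library (x, log axis) of the 48 tested coding histone genes (y), replication-dependent genes above the line and replacement genes below it, each ordered by mean FPKM. Each symbol is 1 library; the PS_high 1 circle lies leftmost for most genes above the line.

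Per length, H2afz and the H3.3 genes H3f3b and H3f3a were the highest replacement genes. H2afz (chr3:137864487-137866922, H2A.Z.1, 37.9 FPKM) had 77.7, 61.6 and 74.6 CPM in the controls and 54.4, 63.4 and 34.0 CPM in PS_high. The groups overlapped through control 2 and PS_high 2 (log2 -0.49, SE 0.24, edgeR adjusted p = 0.9997), and without PS_high 3, its lowest library, the log2 difference was -0.28. H2afv (chr11:6426638-6444443, H2A.Z.2, 5.36 FPKM) had 17.1, 13.9 and 16.6 CPM in the controls and 4.35, 13.7 and 10.9 CPM in PS_high. Its groups did not overlap, by a narrow margin between control 2 and PS_high 2 (log2 -0.72, SE 0.39, edgeR adjusted p = 0.9997). PS_high 1 was its lowest library, and without it the log2 difference was -0.36 (SE 0.20). Together the 2 H2A.Z genes summed to 94.8, 75.6 and 91.2 CPM in the controls and 58.8, 77.1 and 44.8 CPM in PS_high, where PS_high 2 lay within the control range.

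H3f3a and H3f3b encode the same H3.3 protein. H3f3b (chr11:116021912-116027962, 31.5 FPKM) had 91.3, 82.7 and 93.9 CPM in the controls and 138, 94.4 and 109 CPM in PS_high, so that all PS_high libraries lay above all controls, PS_high 2 by little (log2 0.35, SE 0.17, edgeR adjusted p = 0.9997). PS_high 1 was its highest library, and without it the log2 difference was 0.20 (SE 0.13). H3f3a (chr1:180800832-180813943, 22.1 FPKM) had 94.0, 72.8 and 100.05 CPM against 82.1, 74.6 and 99.0 CPM (log2 -0.06, SE 0.18; -0.03 without PS_high 1), and the groups overlapped. The antisense RNA H3f3aos, which the authors' stranded libraries could separate only if strand was used in counting, had a log2 difference of 0.26.

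The other replacement genes differed less or varied more. H1f0, the linker histone of non-dividing cells (chr15:79028450-79030504, 17.6 FPKM), ranged from 31.2 to 69.1 CPM in the controls and from 40.0 to 82.3 CPM in PS_high (log2 0.40, SE 0.35), and leaving out 1 library moved its log2 difference from 0.15 (without PS_high 2) to 0.77 (without control 1). H1fx, another linker histone, had 0.570, 0.578 and 0.966 CPM against 0.792, 1.12 and 1.58 CPM. Its estimate was the largest above 0 among all tested members (0.72, SE 0.40), and it was 0.94 without PS_high 1. The gene overlaps Gm47286 on the same strand. H2afy, the gene of macroH2A1 (chr13:56073619-56136361, 9.43 FPKM), had 25.0, 26.1 and 20.7 against 23.9, 27.7 and 20.3 CPM, a log2 difference of 0.00 (SE 0.19). H2afy2, which encodes macroH2A2, had a difference of 0.04, and -0.05 without PS_high 1. H2afx, the variant phosphorylated at DNA breaks, had 4.35, 3.09 and 3.88 CPM in the controls and 2.21, 4.09 and 3.82 CPM in PS_high (log2 -0.16, SE 0.30), and without PS_high 1 it was 0.07. H2afj had a log2 difference of 0.01.

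**Figure D3:**
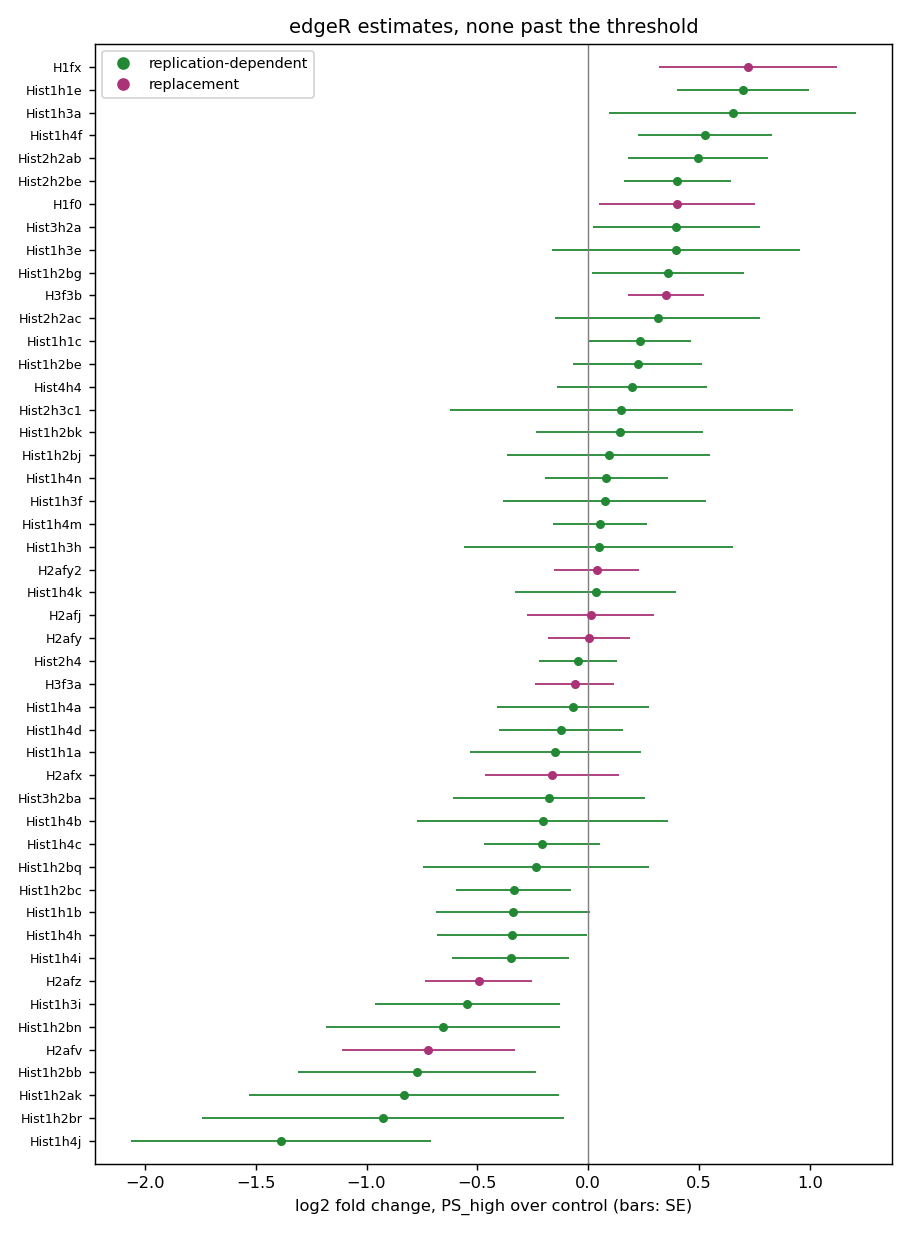
edgeR log2 fold change of PS_high over control (x) for the 48 tested coding histone genes (y), with bars of 1 standard error, replication-dependent genes in green and replacement genes in purple. None passed the adjusted threshold, and the estimates run from -1.38 for Hist1h4j to 0.72 for H1fx.

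The remaining genes were low or listed at 0. Of the 82 coding genes, 76 had a count in some library and 6 were listed at 0 in every library: Hist1h2aa, Hist2h2aa2, Hist2h2bb and Hist2h3b of the clusters, and H2afb1 and H2afb2, testis variants. Another 25 replication-dependent and 3 replacement genes (H1fnt, H1foo and H2afb3) had counts but stayed under a mean of 0.5 FPKM. Neither Hist1h1t, the testis H1, nor H1foo, the oocyte H1, exceeded 0.042 FPKM in a library. Below the filter the groups of Hist1h2bf did not overlap, with 0.561 to 0.686 FPKM in the controls and 0.0802 to 0.420 FPKM in PS_high. That gene had only 3 to 26 counts per library. Hist1h1d, also below the filter, went the other way without overlap. It had 0.120 to 0.170 FPKM in the controls and 0.188 to 0.253 FPKM in PS_high, on 70 to 138 counts per library. Neither gene was tested, and both were named after their values were seen. Of all tested genes 7.09% had groups that did not overlap, and the share among genes below the filter was not counted.

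PS_high 1 was the lowest of the 6 libraries for most replication-dependent genes, and this was chosen for description after the values were seen. It was lowest for 27 of the 38 tested genes of the class (71.1%), for 12 of the 13 H4 genes and for 2 of the 10 tested replacement genes, where it was lowest for 24.6% of all tested genes. Summed over the replication-dependent genes its CPM was 67.0% of the mean of the other 5 libraries. By cluster it was 63.0% for Hist1, 83.3% for Hist2, 65.8% for Hist3 and 55.6% for Hist4. The replacement genes of that library were at 109%. By family the value was 81.2% for H1, 73.1% for H2A, 63.7% for H2B, 58.8% for H3 and 64.4% for H4.

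Several other quantities of PS_high 1 are set beside this. The 10 tested genes of DNA replication and cell division summed, with the untested ones, to 108% of the mean of the others, and the histone pre-mRNA processing genes to 107%. Other single-exon coding genes with isoforms under 1000 bases were at 90.5% (35 genes, lowest in PS_high 1 for 31.4%), those of 1000 bases or more at 107%, and small nucleolar RNA genes at 92.3%. A list of 9 RNAs without a usual poly(A) tail (Malat1, Neat1, Rn7sk and others, 7 tested) was at 114%, with 17018 to 20442 CPM in PS_high and 11146 to 26784 CPM in the controls. Such sums follow the most abundant RNAs. Per tested gene, the median log2 ratio of PS_high 1 to the mean of the others was -0.20 for this list. It was -0.23 for the short single-exon genes, -0.72 for the replication-dependent genes and -0.02 for all tested genes. By cell type markers, blood was at 59.2% (6 of 7 genes tested; 164 to 293 CPM in PS_high, 218 to 403 CPM in the controls), oligodendrocyte precursors at 75.8% (6 of 6; 105 to 148 and 113 to 149 CPM), astrocytes at 80.4% (6 of 6; 6093 to 8665 and 7082 to 7430 CPM), microglia at 81.4% (6 of 6; 150 to 204 and 173 to 180 CPM) and oligodendrocytes at 88.0% (6 of 6; 1199 to 1323 and 1254 to 1478 CPM). Neuron markers were at 123.1% (8 of 8; 4991 to 5487 and 3648 to 4311 CPM), endothelial markers at 110% (6 of 6; 224 to 258 and 196 to 264 CPM), meningeal fibroblast markers at 96.3% (6 of 8; 218 to 328 and 162 to 212 CPM) and immature neuron markers at 104% (6 of 8; 196 to 264 and 203 to 220 CPM). Choroid plexus markers, led by Ttr, were at 7.44% (8 of 8; 32.5 to 888 and 20.1 to 481 CPM). The astrocyte sum follows Slc1a2, at 5228 CPM in PS_high 1, and the endothelial sum follows Slco1a4, at 180 CPM there. Of the 6 astrocyte markers 3 were lowest in PS_high 1, while Gja1 was highest there at 194 CPM. No marker of these lists was at 0 in all libraries. By gene instead of by sum, the median log2 ratio of PS_high 1 to the others was 0.04 for neuron and 0.09 for immature neuron markers. It was -0.20 for endothelial, -0.22 for astrocyte, -0.19 for microglia, -0.26 for oligodendrocyte and -0.38 for oligodendrocyte precursor markers. For meningeal fibroblast markers it was -0.25, for blood -1.08 and for choroid plexus -1.97. The share of counts in introns was 19.1% in PS_high 1 and 15.02% to 19.0% in the others. Their part in the low cluster histone level of PS_high 1 was not tested.

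Without PS_high 1 more of the estimates lay above 0. In edgeR, 5 of the 50 members had an unadjusted p under 0.05, all 5 higher, where 3.47% of all tested genes had one and 1.54% were higher. None passed the adjusted threshold, which 0.0839% of all tested genes did, and the smallest adjusted p of a member was 0.996. The 5 were Hist1h4f (log2 0.78, SE 0.22), Hist1h1e (0.90), Hist2h2be (0.56), Hist1h3e (0.84) and Hist2h2ab (0.71). The replication-dependent genes then had 26 of 38 differences above 0 and a median of 0.22, while the median of all genes was -0.00 and 49.2% were above 0. This fit has 2 PS_high libraries and 3 controls and was made from values already seen. The library left out was the lowest for 27 of the 38 tested replication-dependent genes, so an upward shift of that class was built into the choice. Of the 5 genes named, PS_high 1 was the lowest of all libraries only for Hist1h3e, but the lowest PS_high library for all 5. No conclusion on PS_high against control is drawn from it.

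**Figure D4:**
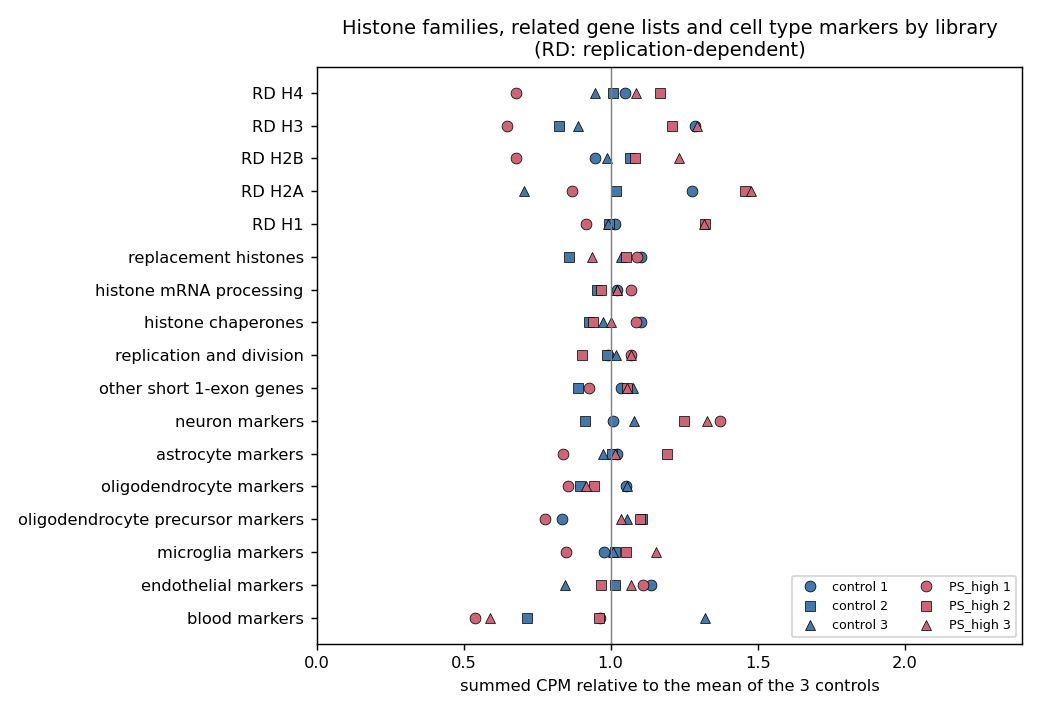
Summed CPM per library relative to the mean of the 3 controls (x, linear) for the replication-dependent (RD) families, the replacement genes, related gene lists and cell type marker lists (y). Each symbol is 1 library; PS_high 1 is at the left end for the H4, H3 and H2B families, and at the right end or centre for the replacement, processing and replication lists.

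Splice forms were examined where genes have several. The members have 127 isoforms, of which 62 were tested and 0 called, where 0.00433% of all tested isoforms were (edgeR, smallest adjusted p of a member 0.99999). An unadjusted p under 0.05 was found for 2 member isoforms, against 3.58% of all tested isoforms. ENSMUST00000137835, a retained-intron form of H2afy, had 85, 50 and 112 counts in the controls and 140, 146 and 149 in PS_high (log2 0.97, SE 0.36, edgeR adjusted p = 0.99999). It made up 6.92%, 3.83% and 9.88% of the H2afy counts in the controls and 12.6%, 12.3% and 14.7% in PS_high, with no overlap. ENSMUST00000093346, a coding form of H2afv, had 19, 15 and 28 counts against 121, 14 and 93 (log2 1.95), and its groups overlapped.

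Estimates of the longer forms moved strongly between libraries of 1 group. The H2afy coding form ENSMUST00000016081 had 236, 105 and 8 counts in the controls and 0, 321 and 0 in PS_high, and ENSMUST00000045788 had 42, 48 and 144 against 32, 15 and 415. H2afy encodes the 2 splice forms macroH2A1.1 and macroH2A1.2, and the deposited table does not say which isoform is which, so neither name is attached. H3f3b form ENSMUST00000106454 had 2740, 2366 and 2342 counts in the controls but 42, 2847 and 3272 in PS_high, while form ENSMUST00000016703 had 1645, 1686 and 2749 against 6320, 1112 and 1928. The main H2afz form ENSMUST00000041045 had 3731, 3029 and 4014 against 2456, 2645 and 1581 counts (log2 -0.54), a difference that did not pass the test. The retained-intron form of H2afz, ENSMUST00000125821, had 46, 28 and 44 counts against 54, 40 and 61 (log2 0.53, SE 0.30), and the single form of Hist1h1e, ENSMUST00000062045, repeats the gene's counts of 102, 83 and 99 against 100, 169 and 145. Of 17369 circRNAs in the second table, 1 came from a member, a circular intronic RNA of H2afz with 1 back-splice read in control 1, and it was too low to test; among the 3275 tested circRNAs 0.0305% were called.

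The genes that process, carry and use histones were listed by role. Of 22 tested histone pre-mRNA processing genes 0 were called, 8 were above 0 and 14 below, with a median of -0.08. Slbp, which binds the stem-loop of histone mRNA, had 7.87, 7.82 and 6.93 CPM in the controls and 8.48, 4.32 and 9.21 CPM in PS_high. Of 28 tested chaperone and deposition genes 0 were called and 1 had an unadjusted p under 0.05, where 2.73% of all tested genes had one, with 16 above 0, 12 below and a median of 0.01. That gene was Set, a chaperone of histones and an inhibitor of protein phosphatase, with 86.1, 67.4 and 74.3 CPM in the controls and 141, 97.1 and 144 CPM in PS_high (log2 0.75, SE 0.19, edgeR adjusted p = 0.9997). Its groups did not overlap, and it was named after its values were seen. Hira, which deposits H3.3 in genes, had a log2 difference of 0.01, Atrx, which deposits it in repeats, 0.05, and Nasp, a carrier of H3 and H4, -0.22.

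Genes of DNA replication and cell division were mostly low. Of 28, 10 were tested and 0 called, with 6 above 0, 4 below and a median of 0.11. Mki67, a marker of cycling cells, had 208, 281 and 135 counts in the controls and 119, 163 and 174 in PS_high, and Top2a, a topoisomerase of dividing cells, 30, 11 and 37 against 9, 25 and 0. Ccnb1, a mitotic cyclin, was listed at 0 in every library, while Pcna had a log2 difference of 0.15. Among 8 tested nucleosome proteins outside the rule 1 was called, where 0.0247% of all tested genes were. It was Hp1bp3, a relative of the H1 histones, which was lower in PS_high with 256, 245 and 260 CPM against 103, 97.3 and 91.1 CPM (log2 -1.38, SE 0.13, adjusted p = 0.0348 by edgeR). The groups were far apart, but this call was lost without a filter, with annotated isoforms only, with the top isoform, in both limma fits, with the replicate block, and without control 1, control 2, control 3, PS_high 2 or PS_high 3. That list was drawn up with earlier results of these data known, so its share of called genes cannot be read against that of all genes. Its median was 0.24. Hmgn3 (0.54) and Hmga1 (-1.004), which encode nucleosome-binding and DNA-binding proteins, had an unadjusted p under 0.05 and did not pass the adjusted threshold. Of all tested genes, 2.73% had an unadjusted p under 0.05.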

How the data were processed

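Per the submitters' processing notes HISAT2, StringTie and TopHat were used; of versions, roles and genome build nothing is given in the sources used here. The authors deposited FPKM and an estimated count for each isoform (isoforms of a gene divide their common reads) and, for circRNAs, back-splice counts and a signal (SRPBM, the count scaled by library). All deposited estimated counts were whole numbers. They were summed per gene over isoforms with class code =, j, c, o or e, which left out introns. Genes with a mean FPKM of at least 0.5 were tested by edgeR 4.0.16 (R 4.3.3, TMM, quasi-likelihood, two-sided, Benjamini-Hochberg over all 20272 genes), and single isoforms likewise. CPM use TMM-scaled totals. The SE of an edgeR estimate was calculated back from the test, as the absolute log2 difference over the square root of the quasi-likelihood F statistic. circRNAs needed reads in 3 libraries. DESeq2 1.42.0 and limma 3.58.1 were alternatives. The scripts were tested on simulated data. Values are printed for the 6 most abundant genes of each class, the 4 largest rises and falls, H2afy, H2afx, H1f0 and the 5 isoforms of smallest p; others were chosen after their values were seen. The members and gene lists were chosen with earlier results of these data known. Samples are 3 per group and depth limits low genes most.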

Additional observations from a re-analysis of the deposited data

How the results depend on the processing

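The count of histone genes and isoforms called was 0 under every alternative that was run; the circRNA of H2afz was too low to test and says nothing here. Over all genes, edgeR called 5, DESeq2 47, edgeR without a filter 2, and annotated isoforms only, the top isoform per gene, limma with either pseudocount (0.1 and 1), and the replicate block each 0; leaving out 1 library gave 0 to 17. The labels do not say whether the replicate numbers pair the samples. Deviations of same-numbered samples correlated at 0.221, 0.118 and 0.0596, and those of unlike-numbered samples at -0.149 to 0.0536. The same-numbered values were thus the higher ones, and a pairing or shared batch by number was not tested. The replicate block left 650 genes at an unadjusted p under 0.05; annotated only 694, top isoform 577, limma 585 and 609. The 1 called gene of the pathway lists, Hp1bp3, was lost, giving 0, without a filter, with annotated only, top isoform, both limma fits and the replicate block, and leaving out 1 library gave 0 to 1. The cause was not tested. The named histone genes kept their direction in 296 of 312 comparisons with alternatives. H2afy, at 0.00, turned to -0.0097 at a mean FPKM of at least 2, -0.38 with the top isoform and -0.0015 with the replicate block. Leaving out 1 library turned 9 genes, with these ranges: H2afy -0.13 to 0.11, Hist1h4n -0.14 to 0.33, Hist1h4m -0.064 to 0.20, Hist1h4d -0.28 to 0.13, Hist2h4 -0.16 to 0.042, H3f3a -0.19 to 0.032, Hist1h2br -1.31 to 0.24, Hist1h3a -0.047 to 0.99 and H2afx -0.33 to 0.075. The log2 ratio of summed levels ran from -0.06 to 0.27 for replication-dependent and from -0.06 to 0.12 for replacement genes. Low counts limit the precision of most cluster genes.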

Other observations

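Of 12 pairs of H2A and H2B genes that lie head to head, with starts 176 to 306 bases apart, the H2B gene had the higher mean FPKM in 11. Some of these pairs rest on values near 0. Hist1h2aa had 0 counts in every library and its partner Hist1h2ba at most 2 in a library, while Hist1h2ah had at most 2 and Hist1h2an at most 6. Hist1h2bj had 0.765 FPKM and its partner Hist1h2ag 0.0313 FPKM, Hist1h2bk 0.797 FPKM and Hist1h2ah 0.00840 FPKM, and Hist1h2bg 2.68 FPKM and Hist1h2ae 0.407 FPKM. In the Hist2 cluster Hist2h2ac had 3.15 FPKM and Hist2h2be 1.44 FPKM. This order holds per length only: in CPM the H2B gene was higher here too, with means of 4.91 for Hist2h2be and 2.19 for Hist2h2ac in the controls and 6.48 and 2.72 in PS_high. The H2A genes are close copies of each other, and a division of reads between them was not tested.

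The deposited models of 22 of the 67 replication-dependent genes reach at least 100 bases past the RefSeq 3′ end. Among them are Hist1h1d with 4879 bases, Hist4h4 with 2440, Hist1h2ac with 2006, Hist3h2a with 1638, Hist2h4 with 1252 and Hist1h1c with 836. A longer model lowers FPKM for the same count. Hist1h1d, with a model of 7425 bases, had 70 to 138 counts per library but a mean of 0.191 FPKM, under the filter. PS_high 1 was the lowest library for 10 of the 15 tested genes whose models reach past the end and for 17 of the 23 others. Its summed CPM was 71.7% and 59.5% of the mean of the other libraries.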
